A study of Mus musculus with 20 samples.

Results

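The genes described here are Alad, Uros, Urod, Cpox, Ppox and Fech, which encode 6 of the enzymes that make heme downstream of Alas2. All introns of these genes with a line in the deposited tables were taken, by matching the transcript of each intron to its gene symbol in the GENCODE mouse annotation. This gave 56 introns of 68794 and 6 genes of 8392. The rule that picks the introns uses gene names and no measured value. Nascent RNA came from MEL cells, a mouse erythroleukemia line arrested as a red cell precursor, in which dimethyl sulfoxide (DMSO) starts erythroid maturation. The uninduced group was wild type MEL cells with no DMSO, and the induced group was wild type MEL cells after 5 days in 2% DMSO. Each group held 4 long-read samples, from 2 biological replicates, each run on 2 PacBio instruments, and in both the RNA had been taken from chromatin and depleted of polyadenylated and ribosomal RNA. The tables give 1 line per intron and condition, so each group is a single pool, no replicate error exists for any value, and every test compares 2 pools of libraries rather than 2 conditions. The other 12 samples of the series were not analysed here.

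Heme is built from glycine and succinyl-CoA in a chain of enzymes that begins and ends in mitochondria, with the middle steps in the cytosol. Alas2 makes aminolevulinic acid, Alad joins a pair of these molecules into porphobilinogen, and Uros forms the ring of uroporphyrinogen III. Urod and Cpox then remove carboxyl groups from the side chains, Ppox oxidises the ring to protoporphyrin IX and Fech inserts the iron. Maturing red cells raise this pathway to supply hemoglobin, and inherited loss of most of its enzymes causes the porphyrias.

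The uninduced pool held 416379 observations at introns, a read being an observation at each intron it covers, and the induced pool 279371. The spliced share of all observations was 0.861 in each pool. Of the 15 erythroid markers, 15 had more reads per intron in the induced pool, where their summed level was 2692 against 284.9. Of 3 genes of the leukemic state, Spi1 and Myb had a summed level of 13.7 before and 0.286 after induction. Of 14 markers of other blood and tissue cells, Pf4 went from 40 to 5 and Itga2b from 13 to 101 reads per intron, a sum of 53 before and 106 after induction, and the other 12 had no line.

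The 6 genes had 693 observations before and 1188 after induction. A depth of 10 reads was reached by 31 of the 56 introns before and 30 after induction, and 29 introns reached that depth in both pools. These were all 11 introns of Alad, 8 of 9 of Urod, 9 of 12 of Ppox and 1 of 10 of Fech. No intron of Uros or Cpox did. All 56 fell on introns annotated in GENCODE release 21 on GRCm38, and 0 overlapped another annotated gene. Introns are numbered from the 5′ end of the transcript.

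Splice sites are shown first because the introns of Alad and Ppox divide into well and poorly spliced ones. The deposited sites cover 25 of the 56 introns. For Alad, Urod and Ppox, those of introns with the lowest or the highest spliced share are given, among introns with a deposited site and at least 10 reads in the pool (1 intron where several tie, and Alad intron 11 besides), together with Alad intron 7 and Ppox intron 3, which had the most splicing intermediates of their gene, and Ppox intron 5, chosen after its score was seen. The 5′ sites hold 3 exon and 6 intron bases, written 5′ to 3′ on the transcribed strand, with the first 2 intron bases in capitals.

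Alad intron 1: ttgGTacgt
Alad intron 2: cacGTgagt
Alad intron 3: cagGTagga
Alad intron 7: aggGTatag
Alad intron 11: ccgGTaagc
Urod intron 1: cggGTgagt
Urod intron 2: cagGTcagg
Ppox intron 2: aagGTgagt
Ppox intron 3: ctgGTgagc
Ppox intron 4: cagGTaaca
Ppox intron 5: gagGTgaca
Ppox intron 7: aagGTagga

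The 3′ sites of the same introns hold 20 intron and 3 exon bases, with the last 2 intron bases in capitals. The 18 bases before them hold the pyrimidine-rich stretch (C and T) bound by the splicing factor U2AF.

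Alad intron 1: tttcctggtgccccctacAGagc
Alad intron 2: gccctcccttgctcttacAGgga
Alad intron 3: ttaccccgtccctcccccAGgta
Alad intron 7: cccattggtcttccctatAGgtc
Alad intron 11: attttctgttgtctgtacAGgtg
Urod intron 1: acctttcacctgatctccAGact
Urod intron 2: tcctccatctccccttgtAGagt
Ppox intron 2: tgcttcacttttggcgccAGgtg
Ppox intron 3: tgagggcttgtggagaacAGgtt
Ppox intron 4: ccatgccttcctccatgcAGggg
Ppox intron 5: gtcccagtcttactcttaAGgtg
Ppox intron 7: caagttttcttctcactcAGgtg

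Ppox intron 3 stood apart at its 3′ site. Of the 18 bases, 6 were pyrimidines, a number at or below which 1.16% of the 6537 introns with a deposited site lay, against a median of 14. Its deposited 3′ score was -2.83, and 0.291% of introns scored as low or lower. Alad intron 7 and Ppox intron 5 stood apart at the 5′ site, with deposited scores of 3.22 and 3.85, at or below which 2.74% and 3.92% of introns lay, the median being 8.78. The poorly spliced Alad introns 2 and 3 had 5′ scores of 9.30 and 9.79, at or below which 62.2% and 71.5% of introns lay. Their 3′ scores were 12.23 and 12.05, at or below which 95.2% and 94.0% of introns lay.

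**Figure D1:**
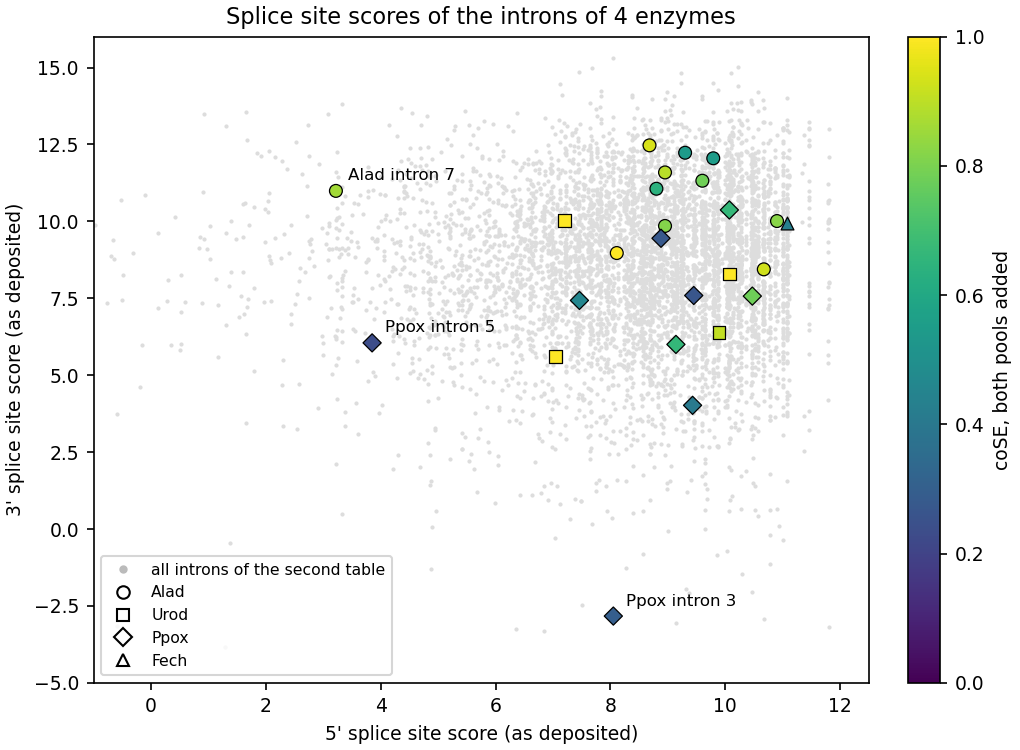
Deposited 5′ score (x axis) and 3′ score (y axis) of the 25 introns with a deposited site; symbols mark the gene, fill colour gives the spliced share with both pools added, and grey points are all introns of the table, of which 45 lie outside the axes. Ppox intron 3 lies lowest, at a 3′ score of -2.83, and Alad intron 7 and Ppox intron 5 lie farthest left, at 5′ scores of 3.22 and 3.85.

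The read coverage of the 6 genes was compared first, as a measure of how much nascent RNA each gave. Alad, which makes porphobilinogen, had 15.4 reads per intron before and 64.1 after induction, or 36.9 and 229.4 per 1000000 observations of the pool, a level 6.22-fold higher after induction. The 95% interval of this ratio was 3.58 to 12.02. It is an exact interval on the mean reads per intron of each pool, rounded to whole numbers, and covers counting error only. All intervals of ratios were made this way, so they do not use all observations of a gene. Fech, which inserts the iron, had 4.60 and 6.70 reads per intron, a ratio of 2.17 (interval 0.570 to 8.34). The other 4 lay within 2-fold. Urod, which makes coproporphyrinogen, had 14.4 and 16.8 reads per intron and a ratio of 1.73 (interval 0.840 to 3.97). Ppox, which makes the protoporphyrin ring, had 22.3 and 18.4 and a ratio of 1.23 (interval 0.616 to 2.38). Uros, which closes the ring, had 3.88 and 2.88 and a ratio of 1.11 (interval 0.164 to 6.61). Cpox, the only gene of the 6 with a ratio under 1, had 8.17 and 3.50 reads per intron and a ratio of 0.639 (interval 0.164 to 2.78). The interval excluded 1 for Alad and included it for the other 5 genes.

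Among 3947 genes with at least 30 observations in the pools together, 19.2% were over 2-fold higher and 24.7% over 2-fold lower in the induced pool, and the median ratio was 0.944. Thus 2 of the 6 enzymes were past 2-fold higher and 0 past 2-fold lower. Alad lay at the 96.9 percentile of all ratios, Fech at 83.2, Urod at 75.8, Ppox at 62.5, Uros at 58.0 and Cpox at 33.5. Without scaling to the pool totals the ratio of Alad was 4.17, that of Fech 1.46 and that of Cpox 0.429, those of Ppox and Uros turned to 0.825 and 0.742, and over all genes the higher ones made up 20.1% of those past 2-fold in place of 43.7%. With the deepest intron of each gene alone, Fech was at 1.95 and Urod at 2.07. With the median over introns, Uros was at 0.894. In whole cultures, a change in the number of cells of a kind and a change in RNA per cell cannot be told apart.

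A list of 21 genes of heme synthesis, porphyrin transport, iron-sulfur clusters and heme breakdown was looked at beside the 6 enzymes. Of these, 12 had enough observations, of which 3 were past 2-fold higher, 2 past 2-fold lower and 7 within 2-fold, with a median ratio of 1.26. Alas2, the enzyme before Alad, went from 6.10 to 153.6 reads per intron, a ratio of 37.5 (interval 17.2 to 105.9). The other 2 were Abcb10, a mitochondrial transporter needed for heme synthesis in red cells, at 10.6, and Abcb6, a porphyrin transporter, at 5.26. The interval of Alas2 lay above those of all 6 enzymes. The 2 genes past 2-fold lower were the mitochondrial unfoldase Clpx, at 0.175 (interval 0 to 3.61), and the mitochondrial chaperone Hspa9, at 0.486 (interval 0.0865 to 1.99). Clpx had 34 and 4 observations, or 2.62 and 0.308 reads per intron. Its interval was taken on these reads per intron rounded to whole numbers, and not on its observations. Per gene, 11 of the list could be tested for a change of coSE, of which 2 passed, both lower after induction, by Fisher's exact test with Benjamini-Hochberg adjustment over all genes. Of all genes tested, 10.3% passed (3.66% lower and 6.59% higher), and these p-values are too small because introns of a gene share reads. Hspa9 fell from 0.822 to 0.522 (adjusted p 0.00386), and Tmem14c, a mitochondrial porphyrin transporter, fell from 0.923 to 0.647 (adjusted p 0.0271). Hspa9 had 46 induced observations over 15 introns, and Tmem14c 34 over 5. Of the introns of the list, 1, in Tmem14c, was deep enough to be tested, and it did not pass.

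**Figure D2:**
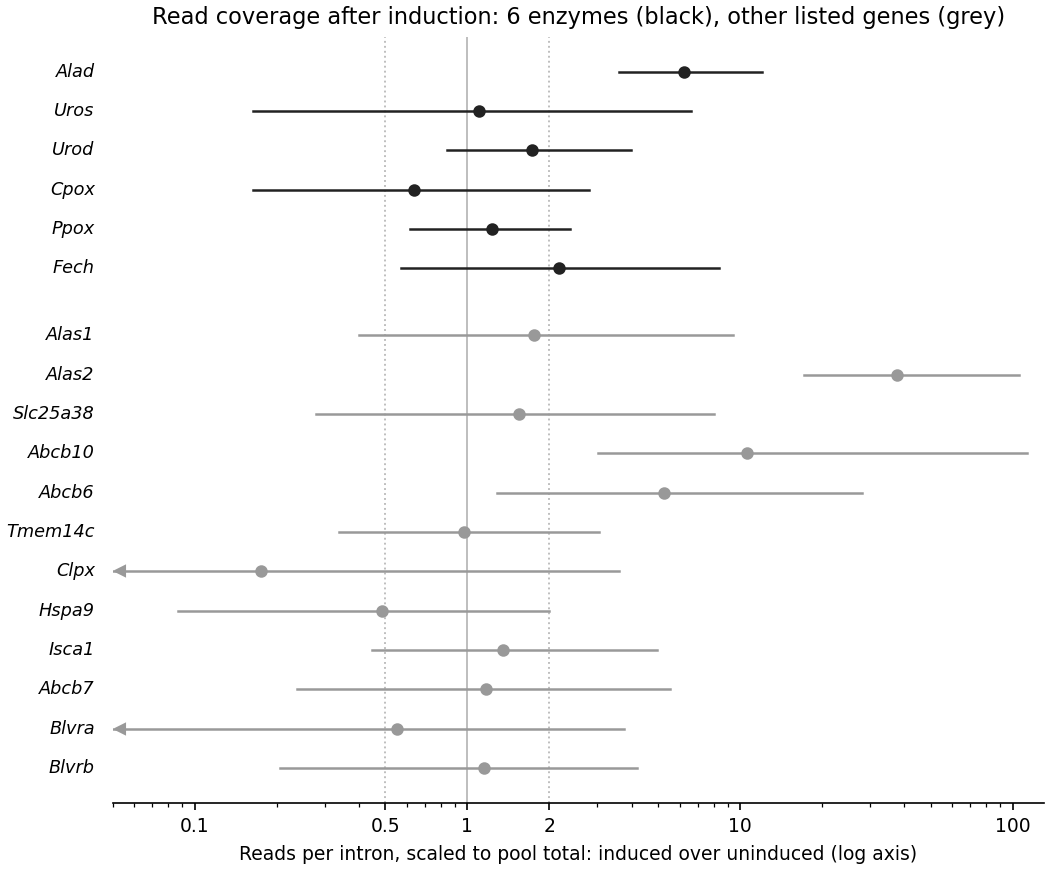
Ratio of reads per intron, scaled to the total of each pool, induced over uninduced (log x axis), for the 6 enzymes (black) and the 12 other listed genes with enough observations (grey). Points are ratios, lines 95% intervals of counting error on mean reads rounded to whole numbers (arrowheads: the interval runs past the axis), dotted lines 2-fold. Alad lies at 6.22 with an interval clear of 1, as do Alas2 at 37.5, Abcb10 at 10.6 and Abcb6 at 5.26.

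**Figure D3:**
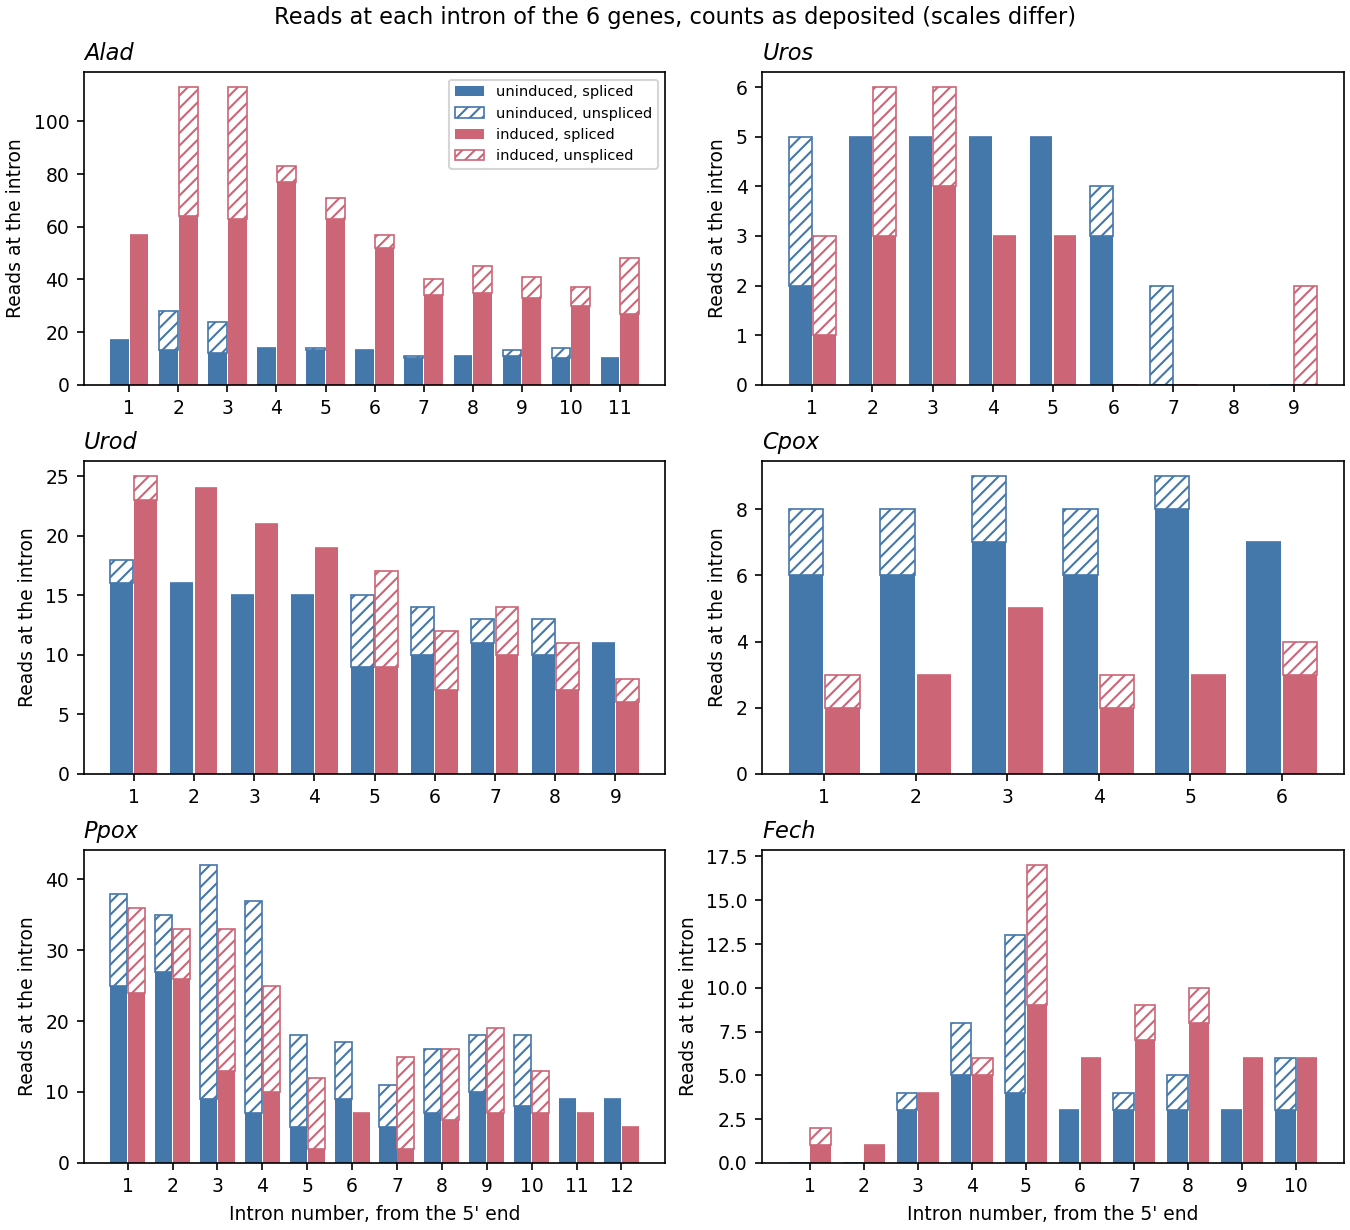
Reads at each intron of the 6 genes (y axis, counts as deposited, a different scale in each panel) by intron number from the 5′ end (x axis); filled bars are spliced and hatched bars unspliced reads, blue uninduced and red induced. In Alad, Urod and Ppox the last intron has fewer reads than intron 2 in both pools, and the unspliced reads of Alad are stacked at introns 2, 3 and, after induction, 11.

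Alad (chromosome 4, minus strand) had reads at all 11 introns, 10 to 28 before and 37 to 113 after induction. Splicing efficiency is given as coSE, the spliced reads over spliced plus unspliced reads. Over the whole gene it was 134 of 169 observations, a coSE of 0.793 (Wilson 95% interval 0.726 to 0.847), before induction, and 535 of 705, a coSE of 0.759 (interval 0.726 to 0.789), after it. Introns of a gene share molecules, so intervals summed over a gene are too narrow. The intervals of the pools overlapped.

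The introns of Alad differed widely among themselves, and introns 2 and 3 were poorly spliced in both pools. Intron 1 (62514261 to 62519859), 5599 bases long and in the 5′ UTR, was spliced in 17 of 17 uninduced and 57 of 57 induced reads. At a floor of 3 counts, an unspliced share of 0.176 and 0.0526 could have gone unseen, and the Wilson intervals reached down to a coSE of 0.816 and 0.937. Intron 2 (62513583 to 62514073, between coding exons) had 13 of 28 reads spliced before induction, a coSE of 0.464 (interval 0.295 to 0.642), and 64 of 113 after it, a coSE of 0.566 (interval 0.474 to 0.654). Intron 3 (62512968 to 62513531, between coding exons) had 12 of 24 reads spliced (0.500, interval 0.314 to 0.686) before and 63 of 113 after induction (0.558, interval 0.466 to 0.646). Introns 2 and 3 flank an exon of 51 bases, and their unspliced reads were nearly equal in number, 15 and 12 before and 49 and 50 after induction. Both introns are present in 3 of 3 annotated transcripts that span them, so no annotated form keeps either one.

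The 7 introns that follow, 4 to 10, were spliced in 82 of 90 uninduced observations, a coSE of 0.911, and in 324 of 374 induced ones, a coSE of 0.866. Single introns ranged from 0.714 to 1 before and from 0.778 to 0.928 after induction. At the last intron, 11 (62509311 to 62510104, between coding exons), all 10 uninduced reads were spliced (interval 0.722 to 1), as were 27 of the 48 induced reads (coSE 0.563, interval 0.423 to 0.693). This was the widest gap between the pools among the 29 introns, and the intervals did not overlap. The unadjusted p was 0.00949 and the adjusted p 0.273 by Fisher's exact test, two-sided, with Benjamini-Hochberg adjustment over all introns tested. Under the 4 alternatives that could test the intron, the adjusted p ranged from 0.370 to 1. At the depth of this intron, an induced coSE of 0.396 or less would have passed.

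Urod (chromosome 4, minus strand), which decarboxylates uroporphyrinogen, had 11 to 18 reads per intron before and 8 to 25 after induction. Before induction its coSE was 0.869 (113 of 130 observations, interval 0.801 to 0.917), and after it 0.834 (126 of 151, interval 0.767 to 0.885). Introns 1 to 4 were spliced in 62 of 64 uninduced and 87 of 89 induced observations, the unspliced ones all being at intron 1. Introns 5 to 9 were spliced in 51 of 66, a coSE of 0.773, and in 39 of 62, a coSE of 0.629. Within these, introns 5 to 8 were spliced in 40 of 55 (0.727) and in 33 of 54 (0.611). At least 1 annotated transcript holds the whole of Urod introns 3, 5, 7 and 8 within an exon.

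The lowest value of Urod in both pools was at intron 5 (116992726 to 116992825, between coding exons), spliced in 9 of 15 reads (0.600, interval 0.357 to 0.802) before and 9 of 17 (0.529, interval 0.310 to 0.738) after induction. Intron 2 (116993468 to 116993584), the deepest of those with no unspliced read, had 16 and 24 reads. The last intron, 9, was spliced in 11 of 11 and in 6 of 8 reads. Introns 5 to 8 include 100, 805, 127 and 94 bases, so the short and the longer ones of this stretch both had unspliced reads. No intron of Urod passed the test.

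Over summed observations, Ppox (chromosome 1, minus strand) had the lowest coSE of the 6 genes in both pools. It was spliced in 130 of 268 observations before induction, a coSE of 0.485 (interval 0.426 to 0.545), and in 116 of 221 after it, a coSE of 0.525 (interval 0.459 to 0.590). With the mean over introns of at least 10 reads, uninduced Fech was lower, at 0.308 on 1 intron against 0.453 for Ppox. Of genes with at least 10 observations, 6.80% of 4971 had a lower coSE before induction, and 5.77% of 4040 after it. Of the introns of the 6 genes with at least 10 reads, 8 of 31 had a coSE under 0.5 before induction, 6 of them in Ppox, and 6 of 30 after it, all 6 in Ppox. Over all introns of that depth the shares were 7.26% and 6.60%.

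Within Ppox, the introns were grouped after these values were seen, and the middle group was less spliced than those at both ends. Introns 1 and 2 were spliced in 52 of 73 uninduced observations (0.712) and 50 of 69 induced ones (0.725). Introns 3 to 10 were spliced in 60 of 177 (0.339) and 54 of 140 (0.386). Introns 11 and 12 were spliced in 18 of 18 and 12 of 12, on 5 to 9 reads per intron, under the depth minimum. The middle 8 introns ranged in coSE from 0.189 to 0.556 before and from 0.133 to 1 after induction.

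The highest value of Ppox at the depth minimum was at intron 2 (171280523 to 171280673, between coding exons), with 27 of 35 reads spliced (0.771, interval 0.610 to 0.879) before and 26 of 33 (0.788, interval 0.622 to 0.893) after induction. Intron 3 (171280256 to 171280387, between coding exons), which carries the weak 3′ site shown above, was spliced in 9 of 42 reads (0.214, interval 0.117 to 0.359) and in 13 of 33 (0.394, interval 0.247 to 0.563). Intron 4 (171280002 to 171280139, between coding exons), whose 3′ score of 9.45 was above the median of 8.70, was spliced in 7 of 37 (0.189, interval 0.0948 to 0.342) and in 10 of 25 (0.400, interval 0.234 to 0.593). The lowest induced value was at intron 7 (171278196 to 171279122, between coding exons), spliced in 5 of 11 reads (0.455) and in 2 of 15 (0.133, interval 0.0374 to 0.379). The intervals of the pools overlapped at each of these 4 introns. Intron 6, spliced in 9 of 17 reads before and in 7 of 7 after induction, was under the depth minimum in the induced pool.

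Of the 56 introns, 14 lie whole within an exon of at least 1 annotated transcript, and 6 of these are in Ppox. They are 6 of its 12 introns (1, 3, 4, 5, 7 and 10), and were spliced in 59 of 164 uninduced observations, a coSE of 0.360, and 58 of 134 induced ones, a coSE of 0.433. The other 6 introns of Ppox were spliced in 71 of 104 (0.683) and 58 of 87 (0.667). Introns 8 and 9, which no annotated transcript keeps, had a coSE of 0.438 and 0.556 before and 0.375 and 0.368 after induction, on 16 to 19 reads. Outside Ppox, introns within an annotated exon varied. Of those at the depth minimum in both pools, Urod intron 5 was lowest, spliced in 9 of 15 and 9 of 17 reads. Urod intron 3 was highest, spliced in 15 of 15 and 21 of 21.

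**Figure D4:**
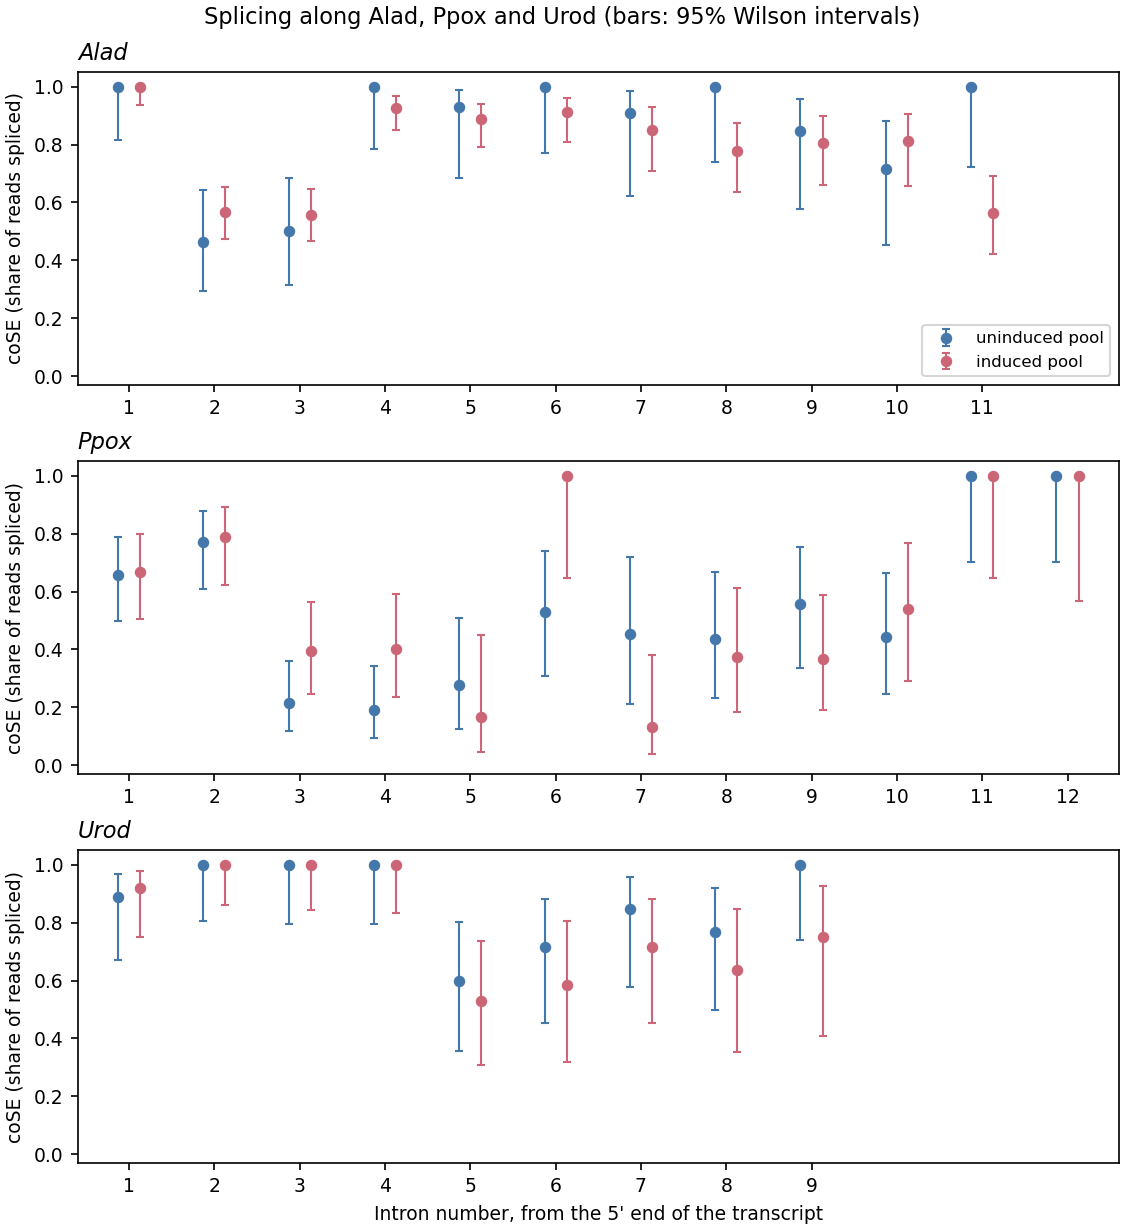
Spliced share of reads (coSE, y axis) at each intron of Alad, Ppox and Urod, numbered from the 5′ end (x axis), in the uninduced (blue) and induced (red) pools; bars are Wilson 95% intervals of counting error. Alad introns 2 and 3 lie near 0.5 in both pools, Ppox introns 3 to 10 lie below 0.6 except intron 6 after induction, and the intervals of the pools are apart at Alad intron 11.

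Uros, Cpox and Fech had few reads. Uros (chromosome 7, minus strand), which makes uroporphyrinogen III, had 0 to 5 reads per intron before and 0 to 6 after induction. It was spliced in 25 of 31 observations (0.806, interval 0.637 to 0.908) and in 14 of 23 (0.609, interval 0.408 to 0.778). Introns 2 to 5, grouped after their values were seen, were spliced in 20 of 20 observations before and 13 of 18 after induction. These had 3 to 6 reads per intron, and the 5 unspliced ones were at introns 2 and 3. Before induction, introns 1, 6 and 7 of Uros had 3, 1 and 2 unspliced reads. Cpox (chromosome 16, plus strand), which makes protoporphyrinogen, had 7 to 9 and 3 to 5 reads per intron. It was spliced in 40 of 49 observations (0.816, interval 0.686 to 0.900) before and in 18 of 21 (0.857, interval 0.654 to 0.9502) after induction. Its uninduced introns ranged from 0.750 to 1.

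Fech (chromosome 18, minus strand) was spliced in 27 of 46 observations (0.587, interval 0.443 to 0.717) before and in 53 of 67 (0.791, interval 0.679 to 0.871) after induction. Its coverage was uneven: intron 5 (2847 bases, between coding exons) had 13 and 17 reads, and the other introns at most 8 and 10. Intron 5 was spliced in 4 of 13 reads (0.308, interval 0.127 to 0.576) and in 9 of 17 (0.529, interval 0.310 to 0.738), and the intervals overlapped. Without it the gene was spliced in 23 of 33 observations (0.697) and in 44 of 50 (0.880). Intron 5 had 9 of the 19 unspliced reads of Fech before induction and 8 of 14 after it.

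Ordered by coSE of summed observations before induction, the genes were Urod, Cpox, Uros, Alad, Fech and Ppox, from 0.869 to 0.485. Neighbours in that order had overlapping intervals except Alad and Fech, whose intervals, 0.726 to 0.847 and 0.443 to 0.717, were apart. After induction the order was Cpox, Urod, Fech, Alad, Uros and Ppox, from 0.857 to 0.525, and each neighbouring pair had overlapping intervals. Ppox was apart from Alad, Urod, Cpox and Fech after induction, and from Alad, Urod, Cpox and Uros before it.

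The change of coSE was tested per gene on the summed observations of introns with a read in both pools. Of all 3384 genes tested, 10.3% passed (6.59% higher and 3.66% lower after induction), and 20.5% had an unadjusted p under 0.05. Of the 6 enzymes 0 passed in either direction, and 1 had an unadjusted p under 0.05 by Fisher's exact test. That was Fech, with 27 of 46 observations spliced before and 51 of 64 after induction (unadjusted p 0.0203, adjusted p 0.134, Fisher's exact test with Benjamini-Hochberg adjustment). Since introns of a gene share reads, these p-values are too small. Under the alternatives the adjusted p of Fech ranged from 0.136 to 1, the latter with its deepest intron alone. The differences, induced minus uninduced, were 0.21 for Fech, 0.04 for Cpox and for Ppox, -0.03 for Alad and for Urod, and -0.21 for Uros. The signs for Cpox, Ppox, Alad and Urod each turned under an alternative given in the closing section.

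Per intron, 1.61% of the 4403 introns tested passed the threshold of 0.05 (0.363% higher and 1.25% lower after induction), and 7.97% had an unadjusted p under 0.05. Of the 29 introns of these genes, 0 passed in either direction by Fisher's exact test. The chi-square test gave 0 as well, and 1 intron, Alad 11, had an unadjusted p under 0.05 by either test. After induction 15 of the 29 were lower and 10 were higher in coSE, and 4 had all reads spliced in both. Over all introns tested, 34.8% were lower and 42.7% higher. Among the 6 introns of these genes with at least 20 reads in each pool, 6 were higher and 0 lower. They were Alad 2 and 3 and Ppox 1 to 4, neighbours that share reads. Their smallest adjusted p was 0.510 by Fisher's exact test, and the share over all introns of that depth was not computed. The median difference over the 29 was -0.04, against 0 over all introns tested. Depth set a limit: the 29 introns had a median of 15 reads before and 25 after induction, and for 3 of them, Ppox 7, 8 and 10, no induced value could have passed. The order of the 29 introns was alike in the pools, with a Spearman's rho of 0.859 across introns, given as a description because introns of a gene share reads; over all 4403 it was 0.565.

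Splicing intermediates, RNAs cut at the 5′ site whose next exon is not yet joined, were tabulated for 12 introns of these genes before and 23 after induction. NIC is the share of intermediates among intermediates plus spliced reads. With the lines of these genes added, there were 7 intermediates beside 98 spliced reads before and 54 beside 617 after induction. Lines with 3 or more intermediates were 1 of 12 and 7 of 23, against 8.01% and 10.2% of all lines of the table.

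Alad held most of the intermediates after induction. Its 11 introns had 43 beside 485 spliced reads, a NIC of 0.0814, where all introns of the pool added together had 0.0435. Intron 7 (62510924 to 62511523, between coding exons), with the 5′ site aggGTatag, had 14 of these in 48 reads (NIC 0.292, Wilson interval 0.182 to 0.432). Introns 4, 5, 6, 3 and 2 had 7, 7, 5, 5 and 3 intermediates and NIC values of 0.0897, 0.106, 0.0926, 0.0794 and 0.0492. Intron 11 had 0 intermediates among 19 reads, and intron 1 had 0 among 52. At a floor of 3 counts, a NIC of 0.158 and 0.0577 could have gone unseen, and the Wilson intervals reached up to 0.168 and 0.0688. Introns 2 and 3, with 49 and 50 unspliced reads, had a NIC below that of intron 7, where 34 of 40 reads were spliced.

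In Ppox, intron 3 had 4 intermediates among 10 reads before induction, a NIC of 0.400 (interval 0.168 to 0.687), and 6 among 18 after it, a NIC of 0.333 (interval 0.163 to 0.563). It was the intron of the 6 genes with the most intermediates in the uninduced pool. Intron 4 had 0 among 7 and 2 among 6. Introns 1 and 2 had 0 among 21 and 22 before and 1 each among 21 and 23 after induction. Fech intron 5 had 2 among 5 and 0 among 3, and the 4 tabulated introns of Urod had 1 beside 63 spliced reads in the induced pool.

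The change of NIC could be tested at 10 introns of these genes, and 0 passed by Fisher's exact test, with 0 at an unadjusted p under 0.05 and 0 past the threshold by the chi-square test. Over all 2039 introns tested, 0.0981% passed, all of them higher after induction, and 1.67% had an unadjusted p under 0.05. Alad intron 7 had no uninduced line and was not tested.

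**Figure D5:**
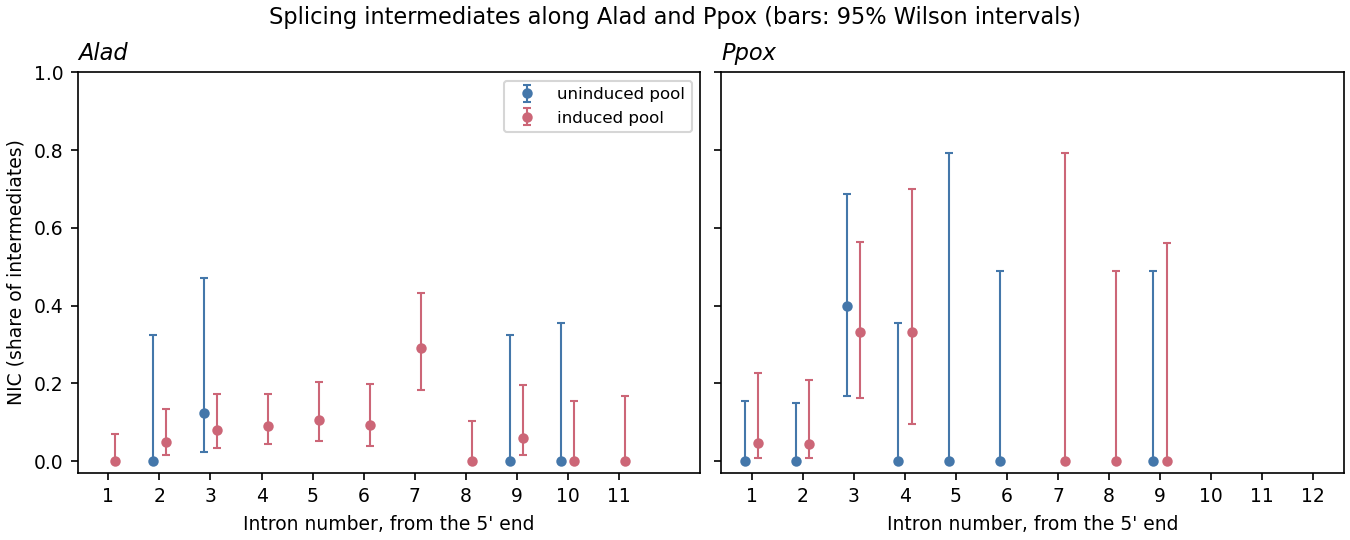
Share of intermediates among intermediates plus spliced reads (NIC, y axis) at the introns of Alad and Ppox with a line in the table, by intron number from the 5′ end (x axis), in the uninduced (blue) and induced (red) pools; bars are Wilson 95% intervals. Alad intron 7 lies at 0.292 after induction, and Ppox intron 3 at 0.400 before and 0.333 after.

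The median length of the 56 introns was 582 bases, against 1226 for all introns of the table, with gene medians of 125 in Ppox, 127 in Urod, 491 in Alad, 826.5 in Cpox, 1498 in Uros and 3146 in Fech. The deposited GC content had a median of 52.3% over the 25 introns with a value and 43.9% over all 6537. The median 5′ score was 9.14 for the 25 introns and 8.78 for all, and the median 3′ score 9.45 and 8.70. These properties were not tested.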

How the data were processed

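Per the labels' protocols, chromatin RNA was ligated to a 3′ adapter with random bases; whether these were used to count molecules is not stated. The submitters' processing notes name cutadapt, minimap2, SAMtools, bedtools and Bowtie and the builds mm10 and dm3, with no roles; filters are not given in the sources used here. The authors deposited raw counts of spliced reads per intron and condition, and beside them, under other headings per the file headers, whole-number tallies of unspliced reads and of intermediates. How unspliced reads were merged and intermediates recognised is not stated. A second deposited table gives NIC as a fraction, GC content in percent, and a score for each splice site; its spliced counts differ from the first table's at many introns.

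Conditions were taken as the pools of the long-read groups, which is not stated. Intron positions (start plus 2, end minus 1 in the deposited coordinates) were matched to GENCODE 21. Fisher's exact tests (scipy 1.17.1), two-sided, were adjusted by Benjamini-Hochberg over the whole table. Changes of coSE per intron needed 10 reads in each pool, and changes of NIC had no minimum. The scripts were tested on simulated data. There the per-intron test found 111 of 200 planted coSE changes with 0 false calls. The per-gene test found 136 of 200 with 2 false calls. Coverage is reads per intron per 1000000 observations of the pool; a 2-fold ratio was the threshold. Intervals are 95% and cover counting error only, as do floors of 3 counts. Those of coverage ratios use mean reads per intron rounded to whole numbers. The genes, lists and tests were chosen with earlier results of these data known. Named introns are those with the lowest and highest coSE of each gene, with 3 or more intermediates, or past a threshold; a few others are named beside them for position or count. The wider list had 1 further gene, left out of its counts and not reported here.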

Additional observations from a re-analysis of the deposited data

How the results depend on the processing

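No paired analysis was possible because replicates were merged in the tables, and neither the replicate block nor the fits with each replicate left out could be run. None of the alternatives gave a call among the 6 genes, for introns, genes or intermediates. Over all introns, 36 coSE changes passed with no coverage minimum and 31 among introns in all spanning transcripts, in place of 71. Over all genes, 19 passed with the deepest intron only and 216 with the uninduced reads thinned, in place of 347. For NIC, 0 introns passed with intermediates set against all reads and 1 under the chi-square test, in place of 2. Read coverage with no scaling had 390 genes higher and 1548 lower in place of 756 and 975, among them 1 and 1 of the 6 enzymes in place of 2 and 0. At 1.5-fold, 1155 genes were higher and 1391 lower, among them 3 and 1 of the 6 enzymes. At 3-fold, 390 were higher, 528 lower, and 1 of the 6 enzymes higher. With the mean over introns of at least 10 reads in place of summed observations, coSE was 0.851 for uninduced Alad, 0.426 for induced Ppox, and 0.308 and 0.665 for Fech, on 1 and 2 introns. The signs of small differences, none past the threshold, turned at Alad intron 2 (-0.0051, thinned), Alad and Urod (0.10 and 0.031, deepest intron), Cpox (-0.014, thinned), Ppox (-0.019, mean of introns), and for NIC at Alad intron 3 and Ppox intron 3 (0.0024 and 0.067, over all reads). The cause was not tested.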
